A study of Mus musculus with 32 samples.

Results

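Collagens, the elastic fiber proteins and the enzymes that process them were followed across lungs and mammary tumors of mice with and without the gene Clic4. The 40 genes were listed by symbol and are 40 of the 29511 genes in the count table. They comprise 6 fibrillar collagen chains, 9 basement membrane collagen chains, 9 beaded, network, fibril-associated and transmembrane collagen chains, 5 lysyl oxidases, 9 processing enzymes and chaperones, and 2 elastic fiber proteins.

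RNA was sequenced from 32 samples of FVB/N mice. The hosts were young adult virgin female littermates, either wildtype (WT) or carrying a constitutive knockout (KO) of Clic4, which encodes a chloride intracellular channel protein. Cells of the mouse mammary cancer line 6DT1 were injected into a mammary fat pad of both genotypes, and these cells kept their own Clic4 in either host. Tumor cells and host stroma are both of mouse origin and were counted together. Groups were lungs of WT (n = 6) and KO (n = 6) hosts 14 days after injection, lungs of WT (n = 4) and KO (n = 4) mice with no tumor (control), and 14-day primary tumors from WT (n = 6) and KO (n = 6) hosts. The 14-day lungs are described in the labels as pre-metastatic. Since the knockout is in every host cell, no effect can be assigned to one host cell type, and a bulk sample cannot separate fewer cells of a type from less RNA per cell.

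Fibrillar collagens (types I, III and V here) are secreted as procollagens, trimmed at their ends and assembled into fibers that bear tension. Type IV collagen instead forms a sheet-like network in basement membranes, and in the lung it lies between the alveolar epithelium and the capillary endothelium. Prolyl and lysyl hydroxylases (P4ha and Plod genes) modify the chains in the endoplasmic reticulum, the chaperone HSP47 (Serpinh1) accompanies them, Bmp1 with its enhancer Pcolce removes the C-propeptide, and lysyl oxidases (Lox and Loxl genes) crosslink collagen and elastin outside the cell. Elastin (Eln), laid on fibrillin microfibrils (Fbn1), gives the lung its recoil.

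Total counts ran from 4446323 to 8318711 per library, with a median of 5384930. Levels below are TMM-scaled CPM (counts relative to library size), which compare one gene between samples, or fragments scaled to transcript length and library size (FPKM), which compare genes per length. Clic4 itself measured 590 to 857 CPM in WT lungs and 206 to 280 CPM in KO lungs, and 293 to 321 CPM in WT against 245 to 281 CPM in KO tumors, so every KO sample lay below every WT sample of its tissue. The study attributes the reads left in KO lungs to parts of the gene outside the excised region. Alveolar epithelium markers summed to 9205 to 12420 CPM in lungs and to 3.1 to 9.8 CPM in tumors, and the 4 listed cartilage markers in the tables summed to at most 1.3 CPM in any group. All 40 members passed the filter on low counts in lungs, and 38 did so in tumors, where Col13a1 and Col4a3 did not.

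Several members sit next to one another in the genome, which matters when chains are compared. In the GRCm38 annotation Col4a1 (chr8:11198423-11312826, minus strand) and Col4a2 (chr8:11312805-11449287, plus strand) are transcribed away from each other, and the gene models overlap by 22 bases. The gap is 71 bases between Col4a4 and Col4a3 on chromosome 1 and 1308 bases between Col4a6 and Col4a5 on the X chromosome, both pairs again head to head. Promoter windows of the RefSeq GRCm38.p6 annotation, from 250 bases before to 50 bases after the start, were found for 28 members. Those of Col4a1 (chr8:11312777-11313076, minus strand) and Col4a2 (chr8:11312555-11312854, plus strand) are shown because a single stretch of 78 bases, in capitals, belongs to both and is read in opposite directions.
Col4a1: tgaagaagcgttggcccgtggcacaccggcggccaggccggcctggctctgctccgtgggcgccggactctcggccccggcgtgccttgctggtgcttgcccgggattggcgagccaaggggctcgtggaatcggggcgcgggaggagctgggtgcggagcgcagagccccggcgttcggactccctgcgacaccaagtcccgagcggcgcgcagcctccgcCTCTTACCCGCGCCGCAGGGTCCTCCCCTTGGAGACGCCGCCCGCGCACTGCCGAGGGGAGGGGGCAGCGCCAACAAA
Col4a2: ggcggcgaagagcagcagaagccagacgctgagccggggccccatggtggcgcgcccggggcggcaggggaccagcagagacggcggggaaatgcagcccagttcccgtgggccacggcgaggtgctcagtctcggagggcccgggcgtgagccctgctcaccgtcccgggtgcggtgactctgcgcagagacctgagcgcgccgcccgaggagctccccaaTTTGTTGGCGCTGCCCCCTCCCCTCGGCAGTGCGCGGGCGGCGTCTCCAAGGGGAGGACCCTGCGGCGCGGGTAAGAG

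The X-linked pair is shown for contrast, since the windows of Col4a6 (chrX:141474027-141474326, minus strand) and Col4a5 (chrX:141475169-141475468, plus strand) lie 842 bases apart and share no base. Capitals mark the GC box, GGGCGG on either strand.
Col4a6: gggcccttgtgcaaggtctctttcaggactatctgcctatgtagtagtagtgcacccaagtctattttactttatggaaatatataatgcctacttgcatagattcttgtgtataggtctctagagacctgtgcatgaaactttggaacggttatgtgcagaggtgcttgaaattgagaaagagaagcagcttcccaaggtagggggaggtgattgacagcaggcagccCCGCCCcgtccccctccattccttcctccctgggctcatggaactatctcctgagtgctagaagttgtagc
Col4a5: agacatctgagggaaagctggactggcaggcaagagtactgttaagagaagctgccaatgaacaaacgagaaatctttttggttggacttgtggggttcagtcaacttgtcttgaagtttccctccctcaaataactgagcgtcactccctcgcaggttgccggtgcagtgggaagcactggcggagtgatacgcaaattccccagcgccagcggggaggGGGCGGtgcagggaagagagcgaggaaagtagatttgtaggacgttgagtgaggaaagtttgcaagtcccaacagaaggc
A GC box was present in 22 of the 30 member windows (28 members, some with more than 1 start), against 35.7% of all 32851 windows. CCAAT on either strand was present in 9 member windows against 37.4% of all, and TATAAA in 4 against 13.6%. These are matches of letters only.

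In lungs the transcript pool was led by basement membrane and type III collagen. Across all 20 lungs the highest FPKM medians were those of Col4a1 (196, range 152 to 245), Col3a1 (192, range 141 to 310) and Col4a2 (123, range 101 to 150). The ranges of Col4a1 and Col3a1 overlap, so their order is not resolved. Serpinh1 followed at a median of 82.4 FPKM, then Col6a1 at 72.1 and Col1a2 at 69.0. Col1a1, the partner of Col1a2 in type I collagen, had a median of only 20.4 FPKM. Among crosslinking enzymes Lox (18.8 FPKM) stood highest, ahead of Loxl1 (8.81), Loxl2 (7.19), Loxl3 (4.41) and Loxl4 (1.28). Eln and Fbn1 had medians of 38.2 and 27.1 FPKM. Col6a6, Col5a3 and P4ha3 were under 1 FPKM at the median.

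The 6 type IV chains had different shares of the type IV total. In lungs Col4a1 held a median of 44.6% of the summed type IV FPKM and Col4a2 28.6%, while the chains found in specialized basement membranes, Col4a3, Col4a4 and Col4a5, held 10.5%, 5.70% and 8.59%, and Col4a6 held 1.56%. In tumors Col4a1 and Col4a2 kept medians of 51.1% and 27.8%, Col4a5 had a share of 20.6%, and Col4a3 and Col4a4 were at 0.037% and 0.176%. Among fibrillar chains Col3a1 held the largest share in both tissues, 61.9% in lungs and 60.3% in tumors. These shares are descriptions of composition within each sample.

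The comparison of tumors with 14-day lungs set the matrix transcripts of the orthograft beside those of the host lung. Col4a3 and Col13a1 passed the filter on low counts in this comparison only through the lungs, where they are high, and are left out of the counts here. Of the other 38 members 30 were higher and 6 lower in tumors (edgeR quasi-likelihood test, Benjamini-Hochberg adjusted p under 0.05), in a comparison where 40.7% of all 16115 genes tested were higher and 41.2% lower. The median log2 fold change was 1.09 over these members and 0.00 over all genes tested. In 22 of them every tumor lay above every 14-day lung and in 5 every tumor lay below. The share of all genes that separate in this way was not computed, so these counts stand without a background. Whether a tumor and a lung with the same number came from 1 mouse is not given in the labels, so the samples were treated as independent.

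All 6 fibrillar chains were higher in tumors. Col1a1 measured 697 to 1050 CPM in WT tumors (median 873) and 444 to 1488 in KO tumors (median 932), against 55.0 to 120 in WT (median 78.9) and 96.9 to 171 in KO (median 126) 14-day lungs. No tumor overlapped a lung, and the log2 fold change was 3.15 ± 0.18 (SE, adjusted p = 5.85e-15). Col3a1 was 5.65-fold higher (log2 2.50 ± 0.17, adjusted p = 3.15e-13), with tumor values from 1911 to 6432 CPM and 14-day lung values from 493 to 1114 CPM. The type V chains, which nucleate fibrils, showed the widest spread of folds, with Col5a3 at log2 6.07 ± 0.13 (adjusted p = 1.42e-23), Col5a1 at 3.27 ± 0.09 (adjusted p = 1.52e-21) and Col5a2 at 1.92 ± 0.08 (adjusted p = 1.99e-17). Col5a3 was low in lungs, at 2.32 to 7.30 CPM in 14-day lungs, and reached 203 to 343 CPM in tumors.

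Basement membrane collagens divided by type. The type IV chains were lower in tumors, apart from Col4a3, which was near 0 there and is described by its counts alone, whereas Col7a1 (anchoring fibrils), Col15a1 and Col18a1 (multiplexins, the latter the source of endostatin) were higher. Col4a1 measured 943 to 1323 CPM in 14-day lungs and 328 to 613 CPM in tumors, with no overlap (log2 -1.30 ± 0.09, adjusted p = 6.47e-13). Col4a2, whose promoter window overlaps that of Col4a1, had a log2 fold change of -1.50 ± 0.09 (adjusted p = 7.37e-14). Col4a4 measured 184 to 230 CPM in 14-day lungs and 0.98 to 3.61 CPM in tumors (log2 -6.42 ± 0.10, adjusted p = 1.04e-26). Col4a3 measured 319 to 412 CPM in 14-day lungs and had between 0 and 7 counts in each tumor library, so no fold is given. Col4a6 had a log2 fold change of -2.94 ± 0.23 (adjusted p = 4.75e-12). Col4a5, the head-to-head partner of Col4a6, had one of -0.32 ± 0.06 (adjusted p = 2.96e-05), and that call ended when the GC content of each gene was modelled (log2 -0.08). Col7a1 measured 8.51 to 15.8 CPM in 14-day lungs and 278 to 452 CPM in tumors (log2 4.84 ± 0.09, adjusted p = 4.76e-25). Alveolar, endothelial and airway markers were all lower in tumors, 7 of 7, 7 of 7 and 5 of 5, with endothelial markers summing to 2952 to 3188 CPM in WT 14-day lungs and 130 to 163 CPM in WT tumors. Only 1, 6 and 0 of these markers passed the filter on low counts in tumors, so the direction of the others was set by the filter. Of the 7 fibroblast markers 2 were higher and 5 lower in tumors (median log2 -1.34), of the 7 smooth muscle and pericyte markers 1 was higher and 6 lower, and all 4 adipocyte markers were higher. The part of these markers in the differences of fibrillar and type IV chains was not tested.

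**Figure D1:**
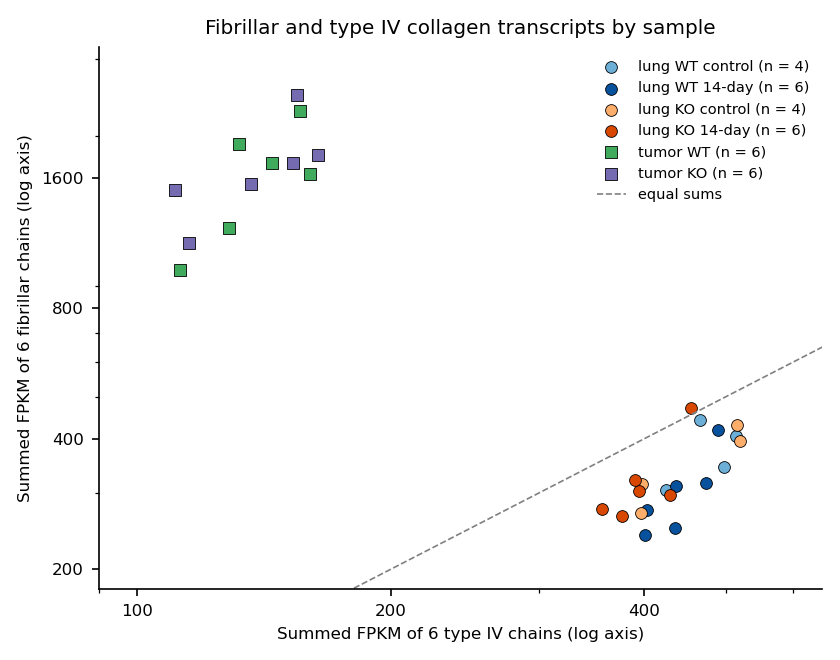
Summed FPKM of the 6 fibrillar chains (Col1a1, Col1a2, Col3a1, Col5a1, Col5a2, Col5a3) against that of the 6 type IV chains for each of the 32 samples, both axes logarithmic, colored by group (circles, lungs; squares, tumors; dashed line, equal sums). The fibrillar sum was 0.573 to 1.03 times the type IV sum in the 20 lungs and 8.70 to 16.01 times in the 12 tumors.

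Per sample the fibrillar sum ranged from 240 to 470 FPKM in lungs and from 977 to 2474 FPKM in tumors. The type IV sum ranged from 357 to 519 FPKM in lungs and from 111 to 164 FPKM in tumors. Lysyl oxidase transcripts summed to 30.6 to 54.4 FPKM in lungs and 70.3 to 111 FPKM in tumors, which is a median of 12.7% of the fibrillar sum in lungs and 5.57% in tumors. Both measures separated every tumor from every lung, the sum upward and the percentage downward, since the lowest lung percentage was 7.29% and the highest tumor percentage 7.26%.

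Crosslinking and processing genes were higher in tumors with 1 exception. Loxl4 had a log2 fold change of 3.42 ± 0.10 (adjusted p = 5.85e-21), Loxl3 of 2.10 ± 0.07 (adjusted p = 5.27e-20), Loxl2 of 1.44 ± 0.10 (adjusted p = 7.54e-13) and Lox of 0.97 ± 0.14 (adjusted p = 5.61e-07). Loxl1, the oxidase tied to elastic fibers, was 19.3 to 42.2 CPM in tumors and 13.2 to 40.2 CPM in 14-day lungs and did not pass the test (log2 0.20 ± 0.13, adjusted p = 0.175). All 9 processing genes were higher, from P4ha2 (log2 0.23 ± 0.09, adjusted p = 0.0200) to P4ha3 (log2 2.83 ± 0.16, adjusted p = 6.01e-15), with Bmp1 at 2.37 ± 0.05 (adjusted p = 4.32e-23) and Serpinh1 at 0.66 ± 0.10 (adjusted p = 1.11e-06). The call of P4ha2 ended with RLE size factors or DESeq2 (log2 0.18 in both), with a filter of 10 counts in every sample (log2 0.14) and without WT 14-day lung 5 or 6, WT tumor 5 or KO tumor 6 (log2 0.16 to 0.19). The other chains were higher by up to log2 3.26 for Col12a1 and 2.96 for Col16a1, both of which bind the surface of fibrils, apart from Col13a1, a transmembrane collagen at 0.40 to 2.38 CPM in tumors and 35.0 to 64.7 CPM in 14-day lungs, which had 2 to 11 counts in each tumor library, so no fold is given. Col6a6 did not pass (log2 0.47 ± 0.36, adjusted p = 0.228).

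The elastic fiber proteins went in opposite directions. Eln measured 74.6 to 160 CPM in 14-day lungs and 13.8 to 55.6 CPM in tumors (log2 -1.59 ± 0.17, adjusted p = 3.58e-09). Fbn1 measured 174 to 290 CPM in 14-day lungs and 291 to 681 CPM in tumors (log2 1.21 ± 0.11, adjusted p = 9.41e-11). The highest 14-day lung and the lowest tumor were nearly equal for Fbn1 (290.2 and 290.5 CPM).

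**Figure D2:**
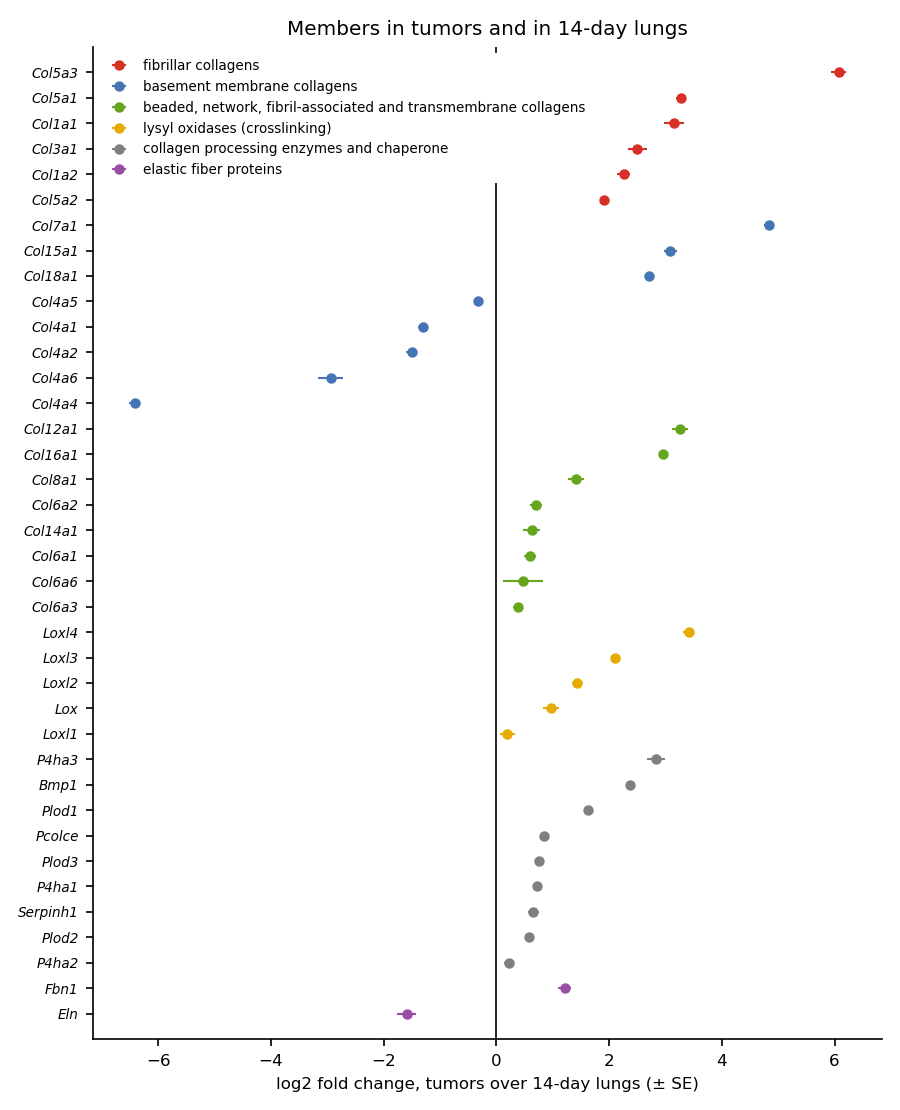
Log2 fold change in tumors over 14-day lungs, averaged over both genotypes, with its standard error, for the 38 members that passed the filter on low counts in both tissues, ordered within 6 roles (colors). Col4a1, Col4a2, Col4a4, Col4a5, Col4a6 and Eln lie left of 0, and the fibrillar chains lie between 1.92 and 6.07.

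Lungs of tumor-bearing mice were compared with control lungs to ask how the lung matrix transcripts differ in the presence of a distant tumor. Averaged over both genotypes, 14 of 40 members were lower and 0 higher at an adjusted p under 0.25 (edgeR quasi-likelihood test, the limit taken from the study), where 2.31% of all 16029 genes tested were lower. The log2 fold change was negative for 36 members, with a median of -0.20 over members and 0.00 over all genes tested. The folds were small, the largest among called members being 1.32 for Eln. No member would pass the 1.5-fold limit of the study as well.

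Of the type VI collagen chains, which form beaded microfibrils around cells, Col6a1, Col6a2 and Col6a3 were lower, and Col6a6 was not called (log2 -0.12 ± 0.17, adjusted p = 0.824). Col6a1 measured 296, 328, 365 and 370 CPM in the WT control lungs and 248 to 295 CPM (median 256) in the WT 14-day lungs, so no 14-day lung reached the lowest control. In KO lungs it was 278, 298, 321 and 354 CPM in controls and 227 to 287 CPM (median 245) at 14 days, where the groups overlap. The log2 fold change over both genotypes was -0.33 ± 0.05 (adjusted p = 0.0132), with Col6a2 at -0.32 ± 0.08 (adjusted p = 0.0864) and Col6a3 at -0.31 ± 0.07 (adjusted p = 0.0452). The calls of these 3 chains, of Col4a6 and of Fbn1 held without any 1 of the 20 lungs, whereas the other 9 calls each ended without 3 to 12 of the lungs, left out in turn.

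Both elastic fiber proteins were lower. Fbn1 measured 252, 280, 283 and 307 CPM in WT controls and 189 to 250.5 CPM (median 220.5) in WT 14-day lungs, and 278, 306, 358 and 369 CPM in KO controls and 174 to 290 CPM (median 233) in KO 14-day lungs. Its log2 fold change over both genotypes was -0.40 ± 0.08 (adjusted p = 0.0439). Eln measured 101, 131, 133 and 162 CPM in WT controls and 74.6 to 117 CPM (median 107) at 14 days, and 117, 122, 187 and 215 CPM in KO controls and 92.1 to 160 CPM (median 106) at 14 days. Eln overlapped between control and 14-day lungs in both genotypes, with a log2 fold change of -0.41 ± 0.13 (adjusted p = 0.176).

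Among fibrillar chains Col3a1 (log2 -0.39 ± 0.14, adjusted p = 0.226) and Col5a2 (-0.23 ± 0.07, adjusted p = 0.175), neighbours on chromosome 1 with a gap of 24614 bases, were called. DESeq2 did not call Col3a1. Col3a1 was 693, 848, 1091 and 1104 CPM in WT controls and 520 to 944 CPM (median 607) in WT 14-day lungs, and 677, 684, 914 and 1067 CPM in KO controls and 493 to 1114 CPM (median 637) in KO 14-day lungs. Replicate 2 of both 14-day groups lay far above the other 5 lungs of its group for Col3a1. In the basement membrane group Col4a6 (-0.27 ± 0.05, adjusted p = 0.0385), Col4a3 (-0.15 ± 0.05, adjusted p = 0.151) and Col4a5 (-0.22 ± 0.07, adjusted p = 0.175) were lower, while Col4a1 was not called (-0.19 ± 0.08, adjusted p = 0.321). Of the crosslinking enzymes only Loxl1 was called with edgeR (-0.40 ± 0.13, adjusted p = 0.207) and Lox was not (0.00 ± 0.15, adjusted p = 0.999), while DESeq2 called Loxl2 as well. Of the 9 processing genes only Pcolce was called (-0.26 ± 0.08, adjusted p = 0.162), and the 9 had a median log2 fold change of -0.04, with Serpinh1 at -0.06 ± 0.13 (adjusted p = 0.897). The remaining 2 calls were Col14a1 (-0.20) and Col16a1 (-0.23), both fibril-associated.

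The WT and KO lungs did not give the same list. In WT lungs 7 members were lower (1.15% of all genes were lower), namely Loxl1, Col1a1, Col6a2, Pcolce, Col18a1, Col6a1 and Col6a3. In KO lungs 4 were lower (0.275% of all genes), namely Fbn1, Col4a6, Col6a1 and Col4a3. Every WT 14-day lung lay below every WT control for Col6a1, Col18a1, Loxl1, Pcolce and Fbn1, and every KO 14-day lung below every KO control for Col4a6. How many of all genes separate in this way was not computed. Both comparisons have their own control lungs, and a gene on 1 list and not on the other is not shown to differ, which is the question of the interaction.

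Loxl1 and Col1a1 had the largest falls in WT lungs. Loxl1 measured 27.5, 33.2, 38.0 and 38.5 CPM in WT controls and 13.2 to 24.6 CPM (median 19.0) at 14 days (log2 -0.83 ± 0.19, adjusted p = 0.116), and 23.2, 25.7, 34.8 and 39.3 CPM in KO controls and 20.3 to 40.2 CPM (median 32.6) at 14 days (log2 0.03 ± 0.19, adjusted p = 0.970). Col1a1 measured 108, 121, 145 and 163 CPM in WT controls and 55.0 to 120 CPM (median 78.9) at 14 days, where 5 of the 6 lay below every control (log2 -0.73 ± 0.20, adjusted p = 0.161). In KO lungs Col1a1 was 71.3, 91.0, 124 and 135 CPM in controls and 96.9 to 171 CPM (median 126) at 14 days, with the groups overlapping (log2 0.27 ± 0.20, adjusted p = 0.742). Pcolce fell by 0.41 ± 0.11 on the log2 scale in WT lungs (adjusted p = 0.171), Col18a1 by 0.38 ± 0.11 (adjusted p = 0.202) and Col6a2 by 0.47 ± 0.11 (adjusted p = 0.117). Col6a1 and Col6a3 fell by 0.35 ± 0.07 (adjusted p = 0.0935) and 0.34 ± 0.09 (adjusted p = 0.176). Fbn1 missed the limit in WT lungs (-0.34 ± 0.12, adjusted p = 0.265), as did Col3a1 (-0.49 ± 0.19, adjusted p = 0.331), Eln (-0.36 ± 0.18, adjusted p = 0.440), Col4a1 (-0.17 ± 0.11, adjusted p = 0.561), Lox (0.31 ± 0.21, adjusted p = 0.580) and Serpinh1 (0.00 ± 0.18, adjusted p = 0.998). DESeq2 did call Fbn1 in WT lungs, and Col16a1 as well. Fbn1 also passed with a filter of 10 counts in every sample, with the replicate block and with only the compared groups. With each of the 10 WT lungs left out in turn, the call of Col18a1 ended in 8 cases and those of the other 6 members in 1 to 4.

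In KO lungs the clearest member was Col4a6. Its 4 control lungs measured 45.3, 46.2, 46.7 and 48.2 CPM and its 6 lungs at 14 days 28.8 to 38.9 CPM (median 33.7), which is a log2 fold change of -0.45 ± 0.08 (adjusted p = 0.0398), and the call held without any 1 of the 10 KO lungs. In WT lungs Col4a6 was 39.4, 41.3, 45.3 and 45.4 CPM in controls and 37.5 to 42.5 CPM (median 39.0) at 14 days (log2 -0.08 ± 0.08, adjusted p = 0.706). Fbn1 fell by 0.46 ± 0.12 (adjusted p = 0.161), Col6a1 by 0.31 ± 0.07 (adjusted p = 0.138) and Col4a3 by 0.23 ± 0.06 (adjusted p = 0.211) on the log2 scale, calls that ended in 7, 3 and 8 cases with each of the 10 KO lungs left out in turn. Not called were Col5a2 (-0.29 ± 0.10, adjusted p = 0.393), Eln (-0.45 ± 0.18, adjusted p = 0.446), Col4a1 (-0.21 ± 0.11, adjusted p = 0.619), Loxl2 (-0.27 ± 0.15, adjusted p = 0.632), Lox (-0.31 ± 0.20, adjusted p = 0.713), Col3a1 (-0.29 ± 0.20, adjusted p = 0.720), Plod2 (-0.13 ± 0.10, adjusted p = 0.755) and Serpinh1 (-0.12 ± 0.19, adjusted p = 0.890). DESeq2 kept the calls made with edgeR in KO lungs and added Col5a2 and Col6a3.

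**Figure D3:**
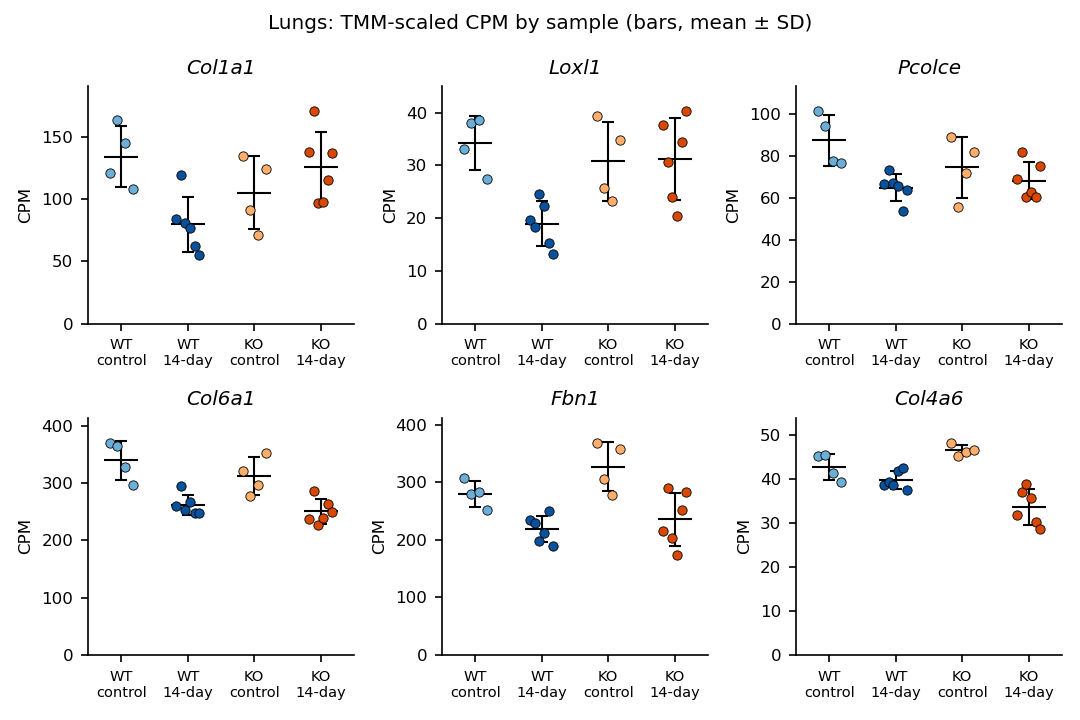
TMM-scaled CPM of 6 members in each lung (points) of the 4 lung groups, with the group mean and SD (bars, n = 4 or 6). WT 14-day lungs lie below all WT controls for Loxl1, Pcolce, Col6a1 and Fbn1, and KO 14-day lungs lie below all KO controls for Col4a6.

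Whether the genotype changed the response was tested as an interaction, the log2 fold change in KO lungs minus that in WT lungs. No member passed at an adjusted p under 0.25 with edgeR, where 0.0499% of all genes did, and 6 members had an unadjusted p under 0.05. The differences were 1.00 ± 0.28 for Col1a1 (adjusted p = 0.322), 0.87 ± 0.27 for Loxl1 (adjusted p = 0.403), 0.54 ± 0.16 for Col18a1 (adjusted p = 0.371), -0.37 ± 0.11 for Col4a6 (adjusted p = 0.349), 0.39 ± 0.19 for Col1a2 (adjusted p = 0.577) and -0.62 ± 0.29 for Lox (adjusted p = 0.573). With DESeq2, the tool of the study, 4 members passed, against 2.33% of the genes it tested, namely Col1a1 (1.00, adjusted p = 0.158), Loxl1 (0.87, adjusted p = 0.149), Col18a1 (0.54, adjusted p = 0.141) and Col4a6 (-0.37, adjusted p = 0.174). The estimates of both tools are alike and the adjusted p-values fall on either side of the limit. Values for the other genes named in this comparison were 0.30 ± 0.16 for Col6a2 (adjusted p = 0.627), 0.29 ± 0.16 for Pcolce (adjusted p = 0.649), 0.21 ± 0.28 for Col3a1 (adjusted p = 0.870), -0.12 ± 0.16 for Fbn1 (adjusted p = 0.869), -0.09 ± 0.26 for Eln (adjusted p = 0.954), -0.12 ± 0.26 for Serpinh1 (adjusted p = 0.932) and -0.04 ± 0.16 for Col4a1 (adjusted p = 0.971).

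**Figure D4:**
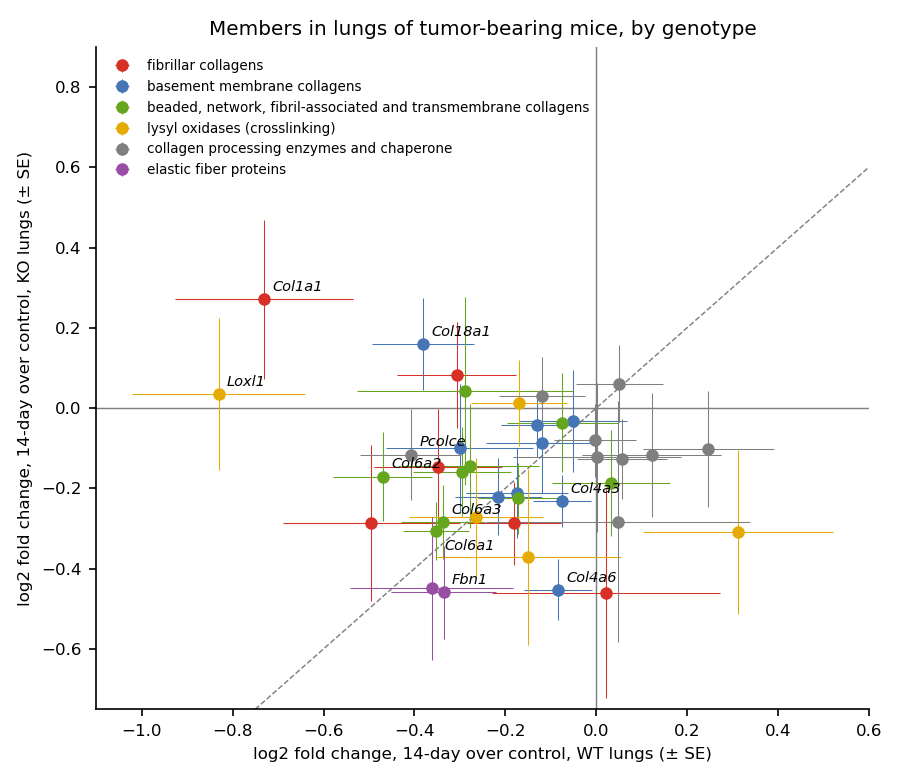
Log2 fold change of 14-day over control lungs in WT (x axis) and KO (y axis) mice for the 40 members, with standard errors, colored by role; called members are named and the dashed line marks equal change. Col6a1, Col6a2, Col6a3 and Fbn1 lie in the lower left, Col1a1, Loxl1 and Col18a1 are lower in WT lungs with KO values of 0.27, 0.03 and 0.16, and Col4a6 is lower in KO lungs with a WT value of -0.08.

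Between genotypes, KO 14-day lungs had more Loxl1 and Col1a1 than WT 14-day lungs and less Col4a6 and Col7a1. These 2 higher and 2 lower members stand beside 0.393% of all genes higher and 0.468% lower. Loxl1 differed by log2 0.71 ± 0.18 (adjusted p = 0.129) and Col1a1 by 0.65 ± 0.18 (adjusted p = 0.205), from the values given above. In Loxl1 4 of the 6 KO lungs, and in Col1a1 3 of the 6, lay above every WT lung. Col4a6 differed by -0.24 ± 0.07 (adjusted p = 0.245), with 5 of 6 KO lungs below every WT lung. Col7a1 measured 8.51 to 12.3 CPM (median 10.6) in KO and 12.3 to 15.8 CPM (median 13.2) in WT 14-day lungs (log2 -0.39 ± 0.11, adjusted p = 0.245), with 5 of 6 KO lungs below every WT lung. With each of these 12 lungs left out in turn, the call of Loxl1 ended in 3 cases, those of Col1a1 and Col4a6 in 8 each and that of Col7a1 in 9. DESeq2 called Loxl1, Col1a1 and Col4a6, not Col7a1, and in addition Col4a3 and Col18a1. With no filter on low counts Loxl1 and Col1a1 remained, and with the replicate number as a block only Col1a1. None of the 4 remained when only the 14-day lungs were fitted, and without the 3 lungs whose counts varied most with GC content only Col7a1 did. Values of the other genes named in this comparison were 0.41 ± 0.22 for Col6a6 (adjusted p = 0.642), -0.24 ± 0.17 for Serpinh1 (adjusted p = 0.766), 0.20 ± 0.16 for Eln (adjusted p = 0.814), -0.12 ± 0.10 for Col4a1 (adjusted p = 0.815), 0.10 ± 0.10 for Fbn1 (adjusted p = 0.858), -0.10 ± 0.18 for Lox (adjusted p = 0.938) and 0.05 ± 0.18 for Col3a1 (adjusted p = 0.970). Cardiac muscle markers, whose source in the lung samples was not tested, summed to 536 to 845 CPM in WT and 417 to 516 CPM in KO 14-day lungs. Of these 5 markers 2 were lower in KO than WT 14-day lungs (median log2 -0.40), and their part in the members' differences was not tested.

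In control lungs no member passed the test between genotypes with edgeR, where 0.973% of all genes did, 0 passed with DESeq2, and 4 members had an unadjusted p under 0.05. When the control lungs were fitted alone, 4 members passed (Col6a2, Col7a1, Lox and Fbn1), where 7.82% of all genes did. The member with the smallest p was Col7a1, at 9.52, 10.5, 11.3 and 11.9 CPM in KO controls and 12.4, 12.5, 15.3 and 17.9 CPM in WT controls, where every KO lung lay below every WT lung (log2 -0.41 ± 0.13, adjusted p = 0.283). The FPKM of Col7a1 ran the other way in control lungs, at 4.63 to 8.98 (median 5.82) in KO and 3.14 to 6.16 (median 3.44) in WT, and the same way as the counts in 14-day lungs, with medians of 2.96 in KO and 4.49 in WT. Lox measured 85.1, 87.1, 88.6 and 90.3 CPM in KO controls and 48.8, 50.8, 57.1 and 88.7 CPM in WT controls (log2 0.52 ± 0.23, adjusted p = 0.388). Col6a2 had a log2 fold change of -0.27 ± 0.12 (adjusted p = 0.404), Pcolce of -0.23 ± 0.12 (adjusted p = 0.476), Fbn1 of 0.23 ± 0.13 (adjusted p = 0.487), Col1a1 of -0.35 ± 0.22 (adjusted p = 0.538), Eln of 0.28 ± 0.20 (adjusted p = 0.596), Loxl1 of -0.15 ± 0.21 (adjusted p = 0.815), Col3a1 of -0.15 ± 0.21 (adjusted p = 0.821), Col4a1 of -0.08 ± 0.12 (adjusted p = 0.838) and Serpinh1 of -0.11 ± 0.20 (adjusted p = 0.869). The genotype comparisons share their lungs with the comparisons of 14-day and control lungs, so they are not independent of them.

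Libraries of the lungs differed in how their counts varied with the GC content of genes, and collagens are rich in GC (median 54.8% over members, 48.9% over genes tested in lungs). The slope per 10 percentage points of GC ran from 0.026 to 0.158 log2 units in WT control lungs and from -0.152 to 0.077 in WT 14-day lungs, and from -0.124 to 0.021 in KO control and -0.066 to 0.066 in KO 14-day lungs. The range thus lay lower at 14 days than in controls in WT mice and higher in KO mice, so it moved with the WT comparison and with the interaction. When GC content was modelled, 3 of the 7 WT calls remained (Loxl1, Col6a1 and Col6a2), and without the 3 lungs of steepest slope (WT control 3, WT 14-day 5 and KO control 2) 1 remained (Col6a1), while the calls over all genes went from 373 to 141 and 37. Over both genotypes all 14 calls remained among 15 when GC was modelled, and 9 remained among 10 without those lungs. In KO lungs Col4a6, Col6a1 and Fbn1 remained in both cases, and Col4a3 did not. The edgeR interaction of Col1a1 was 0.79 ± 0.25 and that of Loxl1 0.59 ± 0.23 when GC was modelled (adjusted p = 0.839 for each). Without those lungs they were 0.84 ± 0.32 and 0.67 ± 0.30 (adjusted p = 0.842 for each). That of Col4a6 was -0.44 ± 0.11 (adjusted p = 0.611) and -0.35 ± 0.12 (adjusted p = 0.842). The 4 calls between genotypes at 14 days all remained when GC was modelled. The part of GC content in these results beyond these values was not tested.

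Fibroblast markers summed to 1032 to 1101 CPM in WT controls and 936 to 1073 CPM in WT 14-day lungs, and to 1123 to 1151 CPM in KO controls and 968 to 1095 CPM in KO 14-day lungs, where the ranges do not overlap. None of the 7 fibroblast markers passed the test in any lung comparison, with median log2 fold changes of -0.01 in WT and -0.05 in KO lungs. Neutrophil markers summed to 26.5 to 49.7 CPM in WT controls and 56.0 to 246 CPM in WT 14-day lungs, and to 36.8 to 65.1 CPM in KO controls and 24.0 to 260.5 CPM in KO 14-day lungs. All 4 neutrophil markers tested were higher over both genotypes. Of 7 alveolar epithelium markers 1 was lower in WT lungs and over both genotypes, and of 4 mesothelium markers 1 was lower over both genotypes (median log2 -0.13). The part of these markers in the members' differences was not tested.

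In primary tumors no member passed an adjusted p under 0.05 between host genotypes with edgeR, where 2.51% of all 13830 genes tested did, and no member had groups without overlap. The nearest was Col8a1, a short-chain network collagen of vessels, at 31.9 to 49.0 CPM (median 37.8) in KO and 35.6 to 100 CPM (median 81.5) in WT tumors. Of the WT tumors, 4 at 78.2 to 100 CPM lay above every KO tumor, and the lowest 2 (35.6 and 36.1 CPM) lay within the KO range (log2 -0.87 ± 0.23, adjusted p = 0.0594). DESeq2 called Col8a1 and no other member. At the looser limit of 0.25, used for lungs, 3 members were lower in KO tumors, against 3.87% of all genes, namely Col8a1, Col18a1 (log2 -0.34 ± 0.12, adjusted p = 0.168) and Col12a1 (log2 -0.56 ± 0.22, adjusted p = 0.235). Col18a1 measured 264 to 397 CPM (median 362) in KO and 327 to 570.5 CPM (median 430) in WT tumors, and Col12a1 456 to 907 CPM (median 707) in KO and 580 to 1573 CPM (median 1005) in WT tumors. For both the groups overlap. Col4a6, named after its values were seen because its fold was the largest, went the other way (log2 1.14 ± 0.51, adjusted p = 0.296), at 3.99 to 13.1 CPM in KO and 0.41 to 8.86 CPM in WT tumors. Mesothelium markers summed to 28.5 to 49.97 CPM in KO and 50.5 to 60.4 CPM in WT tumors, without overlap, and the 1 marker of the 4 that was tested was lower (log2 -0.49). Their part in the members' differences was not tested.

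Fibrillar chains in tumors varied widely within each genotype. Col1a1 ranged from 444 to 1488 CPM in KO and from 697 to 1050 CPM in WT tumors (log2 0.09 ± 0.25, adjusted p = 0.916), and Col3a1 from 2524 to 6432 and from 1911 to 4886 CPM (log2 0.26 ± 0.24, adjusted p = 0.654). Lox was 125 to 171 CPM (median 161) in KO and 91.9 to 223 CPM (median 118) in WT tumors (log2 0.24 ± 0.17, adjusted p = 0.556). Without WT tumor 6, the highest at 223 CPM, Lox passed (log2 0.46 ± 0.10, adjusted p = 0.0237). Loxl1 and Loxl3 had values of 0.19 ± 0.18 (adjusted p = 0.660) and 0.15 ± 0.09 (adjusted p = 0.433). Bmp1, the procollagen C-proteinase, had the smallest p of the processing genes (log2 -0.17 ± 0.07, adjusted p = 0.259). Col4a1 (0.10 ± 0.14, adjusted p = 0.808), Fbn1 (0.07 ± 0.16, adjusted p = 0.899), Serpinh1 (0.01 ± 0.09, adjusted p = 0.987) and Eln (0.00 ± 0.29, adjusted p = 0.999) did not pass. The fibrillar sum over the type IV sum was 8.70 to 14.6 in WT and 9.81 to 16.01 in KO tumors.

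**Figure D5:**
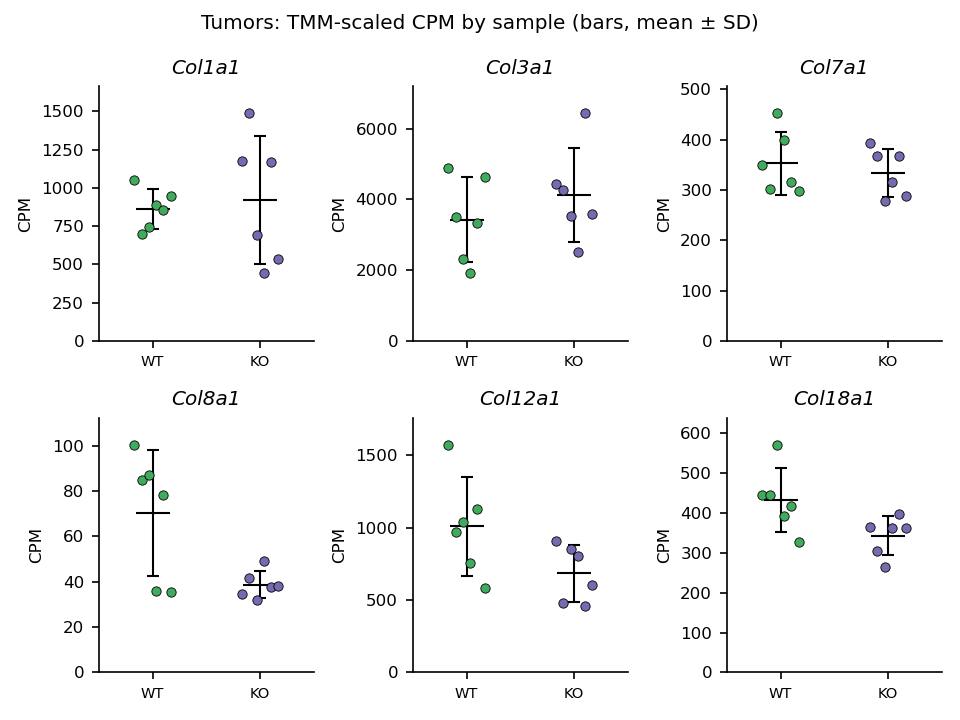
TMM-scaled CPM of 6 collagen chains in each primary tumor (points), with the mean and SD (bars) of 6 WT and 6 KO hosts. The groups overlap in every panel; in Col8a1, 4 WT tumors at 78.2 to 100 CPM lie above all KO tumors.

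Other genes of the pathway were counted from lists fixed by name, and those named here are the called genes of smallest p in each direction, at most 2 per list, with their log2 fold changes. Their counts stand beside 2.48% of all genes higher and 2.31% lower over both genotypes in lungs, 1.18% and 1.15% in WT lungs, 0.780% and 0.275% in KO lungs, and 40.7% higher and 41.2% lower in tumors against lungs. In the tumor and lung fit some genes of these lists passed the filter on low counts through 1 tissue only, which fixed their direction. They are counted here, so those counts are not a test of the lists. Genes passing in the lung fit, the tumor fit and the fit of both were 8, 11 and 12 for other collagens. They were 19, 17 and 19 for synthesis partners, 16, 15 and 16 for proteoglycans, and 14, 16 and 17 for matrix degradation. Among 20 other collagens, 8 were tested in lungs, of which 1 was higher over both genotypes (Col10a1, log2 0.33, adjusted p = 0.197) and 0 lower. In tumors against 14-day lungs 6 of 12 tested were higher, including Col24a1 (2.63) and Col11a2 (1.35), and 3 lower, including Col23a1 (-4.76) and Col8a2 (-3.16). Of 20 collagen synthesis partners, 19 were tested in lungs, and Ppib (cyclophilin B, a prolyl isomerase) was lower over both genotypes (-0.15, adjusted p = 0.146), with 2 lower in WT lungs, Ppib (-0.26, adjusted p = 0.116) and Colgalt2 (-0.34, adjusted p = 0.202), and 0 in KO lungs. In tumors 10 of 19 were higher, including P4hb (0.94) and Adamts14 (2.85), and 6 lower, including Pcolce2 (-2.53) and Colgalt2 (-4.09).

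Elastic fiber partners showed the 1 interaction call among the lists. Ltbp4, which guides elastin assembly, differed between genotypes in its response by log2 0.79 ± 0.16 (adjusted p = 0.205). It was higher at 14 days in KO lungs (0.56 ± 0.12, adjusted p = 0.106), lower in KO than WT controls (-0.43 ± 0.13, adjusted p = 0.249) and higher in KO than WT lungs at 14 days (0.36 ± 0.10, adjusted p = 0.245). Interaction calls over all genes went from 8 to 1 when GC content was modelled. They also went to 1 with the replicate block and to 1 without the lungs of steepest GC slope. Whether Ltbp4 remained in these fits was not followed. Of the 17 partners, all tested, Emilin2 was higher (0.47, adjusted p = 0.206) and Mfap4 lower (-0.29, adjusted p = 0.224) over both genotypes, and Mfap4 also fell in WT lungs (-0.53, adjusted p = 0.171). In tumors 6 were higher, including Fbln2 (2.98) and Ltbp3 (2.27), and 11 lower, including Fbln5 (-3.36) and Mfap4 (-4.50).

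Of 17 basement membrane partners tested in lungs, 6 were lower and 0 higher over both genotypes (2.31% and 2.48% of all genes), including the laminin chain Lamb1 (-0.18, adjusted p = 0.0378) and the peroxidasin Pxdn (-0.22, adjusted p = 0.0439), which crosslinks type IV collagen. In KO lungs 3 were lower, including Lama2 (-0.27, adjusted p = 0.106) and Lamb1 (-0.22, adjusted p = 0.126), and in WT lungs 1, Pxdn (-0.26, adjusted p = 0.132). Lamc1 was lower in KO than WT lungs at 14 days (-0.20, adjusted p = 0.129), and Lama2 higher in KO than WT controls (0.25, adjusted p = 0.220). Against lungs, tumors had 4 higher, including Lamb1 (1.59) and Lamc1 (1.47), and 10 lower, including Sparcl1 (-2.70) and Lama3 (-4.18).

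Of 18 small proteoglycans and matricellular proteins listed, 16 were tested in lungs. Prelp was higher (0.15, adjusted p = 0.127) and Tnc lower (-0.53, adjusted p = 0.184) over both genotypes, and Prelp was higher in KO lungs (0.21, adjusted p = 0.218). In tumors 7 were higher, including Thbs2 (6.66) and Tnc (3.92), and 8 lower, including Ogn (-3.80) and Prelp (-2.07). Of 17 matrix degradation genes, 14 were tested in lungs, and over both genotypes Mmp8 (1.53, adjusted p = 0.0774) and Mmp9 (0.92, adjusted p = 0.207), both proteases of neutrophil granules, were higher and Mmp2 (-0.22, adjusted p = 0.152) and Ctsk (-0.43, adjusted p = 0.198) lower. Mmp8 also passed in WT lungs (1.67, adjusted p = 0.209). In tumors 9 of 17 were higher than in 14-day lungs, including Timp1 (4.74) and Mmp14 (2.34), and 6 lower, including Timp3 (-3.76) and Timp2 (-0.56). Between host genotypes in tumors 2 of the 16 genes tested in this list passed, where 2.51% of all genes did. The other 5 lists, in the order given above, had 0 calls among 11, 17, 17, 17 and 15 genes tested. The collagenase inhibitor Timp1 was higher (0.41 ± 0.10, adjusted p = 0.0465) and the stromelysin Mmp11 lower (-0.92 ± 0.20, adjusted p = 0.0225) in KO hosts.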

How the data were processed

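Poly(A) RNA of frozen tissue was sequenced as stranded paired-end libraries. The authors deposited whole-number expected counts per gene and FPKM per gene symbol for all 32 samples, made with STAR and RSEM on the mm10 (GRCm38) build. Samples were grouped by their titles, and animals were independent within a group. Genes were identified by symbol and Ensembl identifier, and positions, transcript lengths and GC content came from the GENCODE annotation of the same build.

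Expected counts were tested in edgeR 4.0.16 (R 4.3.3) with TMM scaling, filterByExpr and the quasi-likelihood F test, Benjamini-Hochberg adjusted over all genes tested. The 4 lung groups shared a fit, the 2 tumor groups another, and tumors with 14-day lungs a separate fit. Limits on adjusted p were 0.25 for comparisons within lungs and 0.05 otherwise, after the study. The fold limits of the study, 1.5 in lungs and 2 in tumors, were an alternative. Alternatives were DESeq2 1.42.0, size factors by RLE, loess offsets on GC content (span 0.5), a block for the replicate number, a filter of 10 counts per sample or none, fits of the compared groups alone, other limits, and leaving out each library. Leaving out the 4 libraries of steepest GC slope (3 lungs and 1 tumor) was added after seeing the data. A fold change on the log2 scale uses edgeR's shrinkage prior, and FPKM are described without a test.

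On simulated counts with 200 changed genes the steps recovered 77.5% of 1.5-fold changes for 14-day against control WT lungs, 79.0% for KO lungs, 81.0% between genotypes at 14 days, 63.5% between genotypes in control lungs and 64.5% in tumors. Of the genes called in these runs 22.1%, 19.0%, 22.9%, 17.5% and 6.52% were unchanged ones. Only 2 of the 7 members called in WT lungs, 0 of 4 in KO lungs and 2 of 4 between genotypes at 14 days passed 1.5-fold. The recovery of smaller folds is not given by these runs. The simulated counts held no trend with GC content, so the shares of unchanged genes do not cover that trend.

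The members and all gene lists were chosen with earlier results of these data known. Values are given in each comparison for called members, at most the 6 of smallest p in each direction, for the smallest-p member of each role, and for Col1a1, Col3a1, Col4a1, Lox, Loxl1, Serpinh1, Eln and Fbn1, and for 2 called genes per direction of each other list. Remaining members are given where a sentence compares related chains.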

Additional observations from a re-analysis of the deposited data

Results flagged for a closer look

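In 9 of 240 combinations of member and group, 1 library stood apart from the rest of its group by Dixon's ratio at its 95% critical value, where chance gives about 12. Replicate 2 of the KO 14-day lungs was highest in Col1a2 (446 CPM, next 332) and in Col3a1 (1114 CPM, next 653). Replicate 2 of the WT 14-day lungs was highest in Col3a1 (944 CPM, next 670) and in Col14a1 (94.6 CPM, next 78.7). Replicate 6 of the WT tumors was highest in Lox (223 CPM, next 132) and in Col6a6 (19.7 CPM, next 2.93). Replicate 3 of the WT control lungs was highest in Col5a3 (7.01 CPM, next 4.32). Replicate 4 of the KO control lungs was highest in P4ha2 (56.9 CPM, next 40.3). Replicate 4 of the KO tumors was lowest in Col13a1 (0.400 CPM, from 2 counts, next 1.59).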

How the results depend on the processing

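RLE size factors, the stricter count filter and DESeq2 kept the count of called members within 1.5 times for every comparison, except that DESeq2 gave 4 for the interaction in lungs (Col1a1, Col4a6, Col18a1 and Loxl1) and 1 for host genotype in tumors (Col8a1). For WT lungs at 14 days against controls, the 7 calls became 3 with GC offsets, 2 with the fold limit, 0 at an adjusted p under 0.05 and 1 without the 3 lungs of steep GC slope, and calls over all genes went from 373 to 141, 92, 0 and 37. For KO lungs the 4 calls became 2 with only the compared groups, 0 with the fold limit and 1 at an adjusted p under 0.05 (all genes 169, then 131, 42 and 6), and over both genotypes the 14 became 0 with the fold limit and 4 at an adjusted p under 0.05 (all genes 769, then 92 and 39). For KO against WT 14-day lungs the 4 calls became 2 with no filter, 0 with only the compared groups, 2 with the fold limit, 0 at an adjusted p under 0.05 and 1 without the steep lungs (all genes 138, then 110, 41, 34, 15 and 95). With only the compared groups, control lungs had 4 calls between genotypes (Col6a2, Col7a1, Lox and Fbn1; 1189 of all 15202 genes), and tumors had 3 at an adjusted p under 0.25. No called value changed sign under any alternative.

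Libraries were left out in turn. Calls ranged from 0 to 10 in WT lungs, with 0, 1, 2 and 3 without control replicates 2, 3 and 1 and without 14-day replicate 6. They ranged from 1 to 6 in KO lungs, with 1 without control replicates 2, 3 or 4 and 2 without control replicate 1 or 14-day replicates 1, 3 or 4. Over both genotypes they ranged from 6 to 15, with 6 without WT control 1, KO control 1 or KO control 4, 7 without WT control 2, WT 14-day 6 or KO 14-day 4, and 9 without WT control 3. For the interaction they ranged from 0 to 3 (3 without KO control 1, 1 without WT 14-day 3). Between genotypes at 14 days they ranged from 0 to 4, with 0 without KO replicates 5 or 6 or WT replicate 1, 1 without WT replicate 4, and 2 without KO replicate 2 or WT replicates 2, 3 or 5. In control lungs they ranged from 0 to 1 (1 without KO replicate 1 or WT replicates 1 or 4), in tumors from 0 to 2 (1 without WT replicate 4, 2, Col8a1 and Lox, without WT replicate 6) and for tumors against lungs from 37 to 38.

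The replicate number as a block gave 8, 4, 12, 0, 1, 0, 0 and 38 calls for WT lungs, KO lungs, both genotypes, the interaction, 14-day and control lungs between genotypes, tumors and tumors against lungs, and over all genes 582, 513, 1191, 1, 108, 98, 257 and 13178, against 373, 169, 769, 8, 138, 156, 347 and 13209 without it. The correlation of same-numbered samples ran from -0.289 to 0.232 and in no pair of groups were all over 0.1, so the numbers were not taken to pair samples. For 14-day lungs and tumors of KO hosts it ran from 0.030 to 0.176, and 4 of 6 lungs correlated best with the tumor of their own number. In WT hosts it ran from -0.010 to 0.068, with 1 of 6 lungs. These values do not decide whether KO tumors and lungs of a number share a mouse. With GC offsets and the block, the counts were 6, 6, 16, 0, 3, 0, 0 and 38, and over all genes 519, 330, 1406, 1, 192, 6, 251 and 13405. Counts for tumors against lungs include Col4a3 and Col13a1 here.

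Values that passed no test and lay near 0 changed sign as follows, on the log2 scale. Lox over both genotypes was -0.0026 with DESeq2, -0.15 with the replicate block, -0.015 with GC offsets and -0.15 with both, and Serpinh1 was 0.076 with the block and 0.076 with both. Serpinh1 was -0.00346 in WT lungs with no filter and 0.025 in KO lungs with the block. Loxl1 in KO lungs was -0.087 with GC offsets, -0.13 with offsets and block and -0.037 without the steep lungs. Between genotypes in control lungs GC offsets gave 0.080 for Col4a1, 0.087 for Loxl1 and 0.019 for Serpinh1, offsets with the block 0.079, 0.086 and 0.030, and Col4a1 was 0.045 without the steep lungs. In tumors Eln was 0.0025 with RLE, 0.0021 with DESeq2, 0.00308 with no filter, 0.0061 with the strict filter, 0.014 with the block and 0.049 without the steep library. Col1a1 in tumors was -0.038 with the block, -0.016 with GC offsets, -0.11 with both and -0.00127 without the steep library, and Serpinh1 was -0.0527, -0.0416 and -0.0313 with GC offsets, with both and without that library. With single libraries left out, values spanned 0 as follows. In tumors Col1a1 ran from -0.109 to 0.229, Fbn1 from -0.0523 to 0.151, Serpinh1 from -0.0328 to 0.0792 and Eln from -0.173 to 0.152. Between genotypes Col3a1 ran from -0.141 to 0.188 in 14-day lungs and Col4a1 from -0.168 to 0.00662 in control lungs. In the interaction Col4a1 ran from -0.125 to 0.0498, Eln from -0.209 to 0.0878 and Serpinh1 from -0.244 to 0.0677. Against control lungs Lox ran from -0.109 to 0.119 and Serpinh1 from -0.113 to 0.0351 over both genotypes, Serpinh1 from -0.105 to 0.119 in WT lungs, and Loxl1 from -0.0799 to 0.173 and Serpinh1 from -0.228 to 0.0690 in KO lungs.

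Depth limits Col4a3 and Col13a1 in tumors, at 0 to 7 and 2 to 11 counts per library.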
